A study of Mus musculus with 4 samples.

Results

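HOXA5 occupancy was examined at 10 genes of the fibroblast growth factor (FGF) pathway that drives branching of the mouse lung. They are the ligand genes Fgf7, Fgf9 and Fgf10, the receptor genes Fgfr1 and Fgfr2, the transcriptional effector genes Etv4 and Etv5, and the feedback inhibitor genes Spry1, Spry2 and Spry4. These genes were chosen by their known role, out of 21779 protein-coding genes with an annotated position. Earlier results of these data were known when they were chosen. A peak was assigned to a gene when its summit lay inside the gene's RefSeq span, or within 100 kb of it with that gene as the nearest protein-coding gene. By this rule 4 of 4289 peaks in replicate 1 and 3 of 2832 in replicate 2 belonged to the 10 genes.

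The data are chromatin immunoprecipitation followed by sequencing (ChIP-seq) with a FLAG antibody on lungs of E15.5 Hoxa5FLAG/FLAG embryos, in which both alleles of the endogenous Hoxa5 gene carry the FLAG epitope. The series has 2 immunoprecipitates and 2 inputs, all of that same genotype although the sample titles carry the abbreviation wt. Peak lists of the 2 immunoprecipitates were used, the inputs and any untagged lungs were not analysed here, and no label tells if the replicates were separate litters or pools of lungs. Chromatin came from whole lung, so signal from epithelium and mesenchyme cannot be told apart.

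FGF ligands are secreted proteins that signal through receptor tyrosine kinases. In the budding mouse lung, mesenchymal FGF10 acts on the epithelial isoform of FGFR2 and draws the bud tip outward. The tip answers by inducing the ETS-family factors ETV4 and ETV5 and the Sprouty protein SPRY2, which dampens the signal. FGF7 binds the same epithelial receptor, while FGF9, made by mesothelium and epithelium, signals back to the mesenchyme. Hoxa5 is itself transcribed in lung mesenchyme.

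Fgf10 and Etv4 were the 2 genes of the 10 with a shared peak, found in both replicates, against 5.96% of all protein-coding genes. Fgf7 and Fgfr1 had a peak in replicate 1 alone (4.16% of all protein-coding genes did), and Fgfr2 had a peak in replicate 2 alone (1.3%). Fgf9, Etv5, Spry1, Spry2 and Spry4 had no assigned peak in either list. Each of the 5 genes with a peak had a single peak in a list.

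All positions are in mm10. Each peak carries a fold enrichment at its summit and a −log10 q, both computed by the authors separately for each replicate. The −log10 q grows with the statistical strength of the call. No read counts were available, so the depth behind these values is unknown. The median fold was 3.87 over the replicate 1 list and 3.36 over the replicate 2 list. Of the 4289 replicate 1 peaks 51.2%, and of the 2832 replicate 2 peaks 77.6%, overlapped a peak of the other list by at least 1 bp, which gave 2175 shared peaks after overlapping chains were merged.

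None of the promoter windows matched to these genes was covered by a peak. The RefSeq promoter table (GRCm38.p6, the assembly of mm10) holds windows of 250 bases before to 50 bases after a start site, and 8 such windows matched 7 of the 10 genes, namely Fgf7, Fgf9, Fgf10, Fgfr2, Etv5, Spry1 and Spry2. Of the 8 windows 0 overlapped a peak of either replicate, and over all 32851 windows 138 did (0.42%), so a result of 0 among 8 is near the background. 3 windows are shown: Fgf10, because its distal peak lies upstream of this start, and Spry1 and Spry2, because they are the ones that hold a searched motif.
Fgf10 promoter, chr13:118714449-118714748, plus strand: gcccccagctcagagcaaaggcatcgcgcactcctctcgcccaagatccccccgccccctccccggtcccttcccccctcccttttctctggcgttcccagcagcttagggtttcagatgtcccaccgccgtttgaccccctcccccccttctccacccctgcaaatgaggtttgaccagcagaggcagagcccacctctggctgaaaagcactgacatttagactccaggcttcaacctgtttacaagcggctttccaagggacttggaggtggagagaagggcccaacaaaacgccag
Spry1 promoter, chr3:37639697-37639996, plus strand: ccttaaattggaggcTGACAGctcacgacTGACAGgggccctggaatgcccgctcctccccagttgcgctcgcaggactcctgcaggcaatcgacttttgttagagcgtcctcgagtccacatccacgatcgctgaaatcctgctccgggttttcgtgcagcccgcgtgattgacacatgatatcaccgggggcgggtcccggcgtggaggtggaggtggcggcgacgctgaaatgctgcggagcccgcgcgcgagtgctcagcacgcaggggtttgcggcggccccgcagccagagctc
Spry2 promoter, chr14:105896770-105897069, minus strand: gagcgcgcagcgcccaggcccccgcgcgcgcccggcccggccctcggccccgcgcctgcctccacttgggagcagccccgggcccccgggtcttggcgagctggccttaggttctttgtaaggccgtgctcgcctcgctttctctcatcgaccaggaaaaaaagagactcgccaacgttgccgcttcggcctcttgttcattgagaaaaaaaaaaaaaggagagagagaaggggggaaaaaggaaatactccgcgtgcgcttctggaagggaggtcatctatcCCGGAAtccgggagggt
Sequences run 5′ to 3′, and capitals mark matches on either strand to TAATTA (a homeodomain core), TGATTNAT (a PBX-HOX composite), TGACAG (a MEIS core) or CCGGAA (an ETS core).

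The Spry1 window held TGACAG at 2 places, starting at bases 16 and 30, and the Spry2 window held CCGGAA at base 284. The Fgf7, Fgf9, Fgf10, Fgfr2 and both Etv5 windows held none of the 4 strings, so the Fgf10 sequence has no capitals. Over all 32851 promoter windows, TAATTA occurred in 5.29%, TGATTNAT in 3.22%, TGACAG in 19.2% and CCGGAA in 14.9%. The Fgf10 window was 60.7% G and C, against 45.7% in the Fgf7 window and a median of 52.7% over all windows. No match overlapped another. A string match describes letters and says nothing of occupancy.

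The Fgf10 peak was the strongest of the assigned peaks in each list. It spanned 118679217 to 118679877 on chromosome 13 (661 bp) in replicate 1 and 118679255 to 118679631 (377 bp) in replicate 2. Fold enrichment was 12.2 in replicate 1 and 7.41 in replicate 2, with −log10 q of 105.3 and 41.5. Within its own list the peak ranked 153 of 4289 in replicate 1 and 139 of 2832 in replicate 2, above 96.4% and 95.0% of the peaks by fold.

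The summit was called at the same base, 118679452, in both replicates. Such identity was found for 50 of the 2175 shared peaks (2.3%), and the median gap between the summits was 32 bp. The summit lay 35.2 kb upstream of the annotated Fgf10 start on the plus strand, while the gene itself covers 118714699 to 118792573 (77.9 kb). Fgf10 stands alone in its neighbourhood, with the nearest protein-coding genes 327.4 kb away on the upstream side (Mrps30, a mitochondrial ribosomal protein gene) and 543.0 kb away downstream (Nnt, a mitochondrial transhydrogenase gene). A long noncoding RNA gene, Gm16263 (118686120 to 118705639), lies between the peak and Fgf10, and its nearer end was 6.67 kb from the summit.

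Among the 555 shared peaks lying between 10 and 100 kb outside a protein-coding gene, the Fgf10 peak ranked 43 by replicate 1 fold and 34 by replicate 2 fold. The medians of that class were 4.04-fold and 3.53-fold. The 3 peaks of the class most like it in fold, by the distance of the log2 folds over the 2 replicates, had Upb1 (11.7-fold in replicate 1 and 7.15-fold in replicate 2), Ccdc115 (12.6-fold and 7.05-fold) and Dnpep (12.3-fold and 6.89-fold) as nearest protein-coding genes, at log2-fold distances of 0.075, 0.087 and 0.106.

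In the 500 kb to either side of Fgf10 the remaining peaks all lay downstream, at least 385.4 kb beyond the gene, and had Nnt as their nearest protein-coding gene. The strongest of them, 454.7 kb away and 88.3 kb from Nnt, was shared, its enrichment being 9.12-fold in replicate 1 and 5.87-fold in replicate 2. On the upstream side the distal peak was the single peak of that window in each list.

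**Figure D1:**
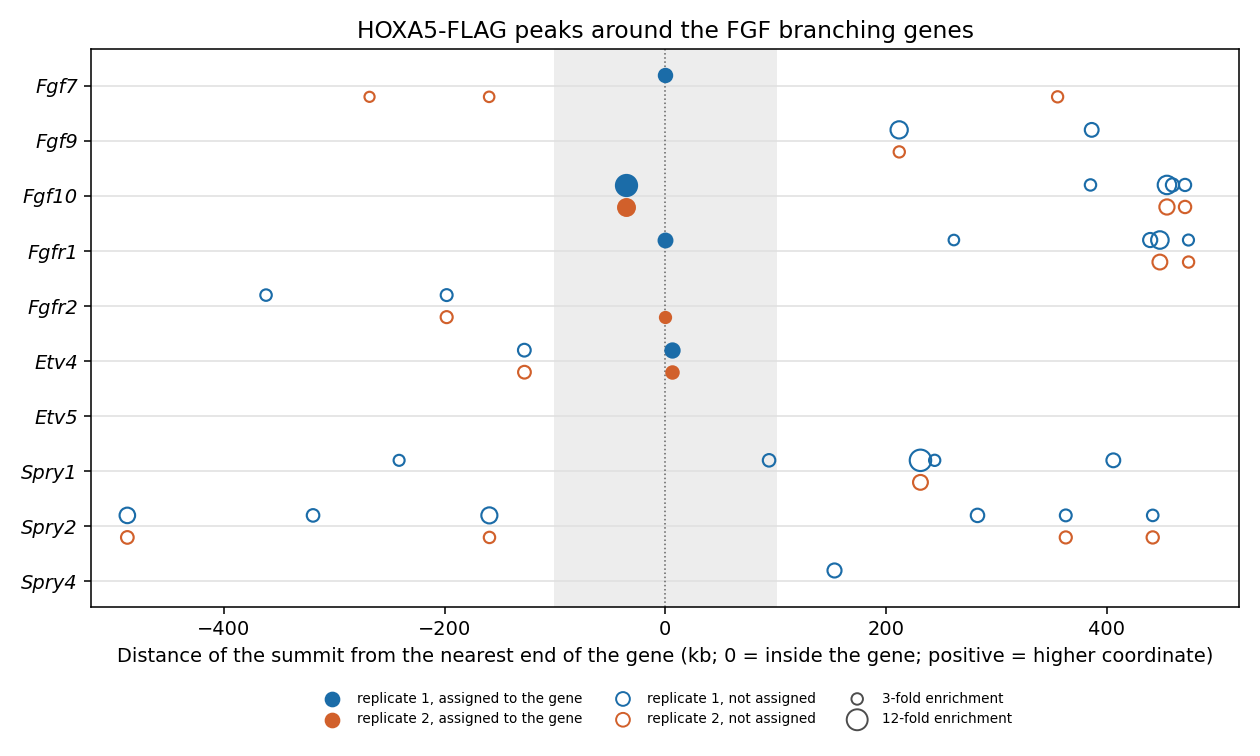
HOXA5-FLAG peaks within 500 kb of each of the 10 genes, one row per gene, with replicate 1 drawn above the line and replicate 2 below it. The x axis gives the distance of the summit from the nearest end of the gene in kb, symbol area grows with fold enrichment, filled symbols are assigned to the gene, and the grey band marks 100 kb; Fgf10 and Etv4 are the rows with filled symbols of both replicates.

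The other mesenchymal ligand gene, Fgf7, had a peak in replicate 1 alone. It lay inside the gene (chromosome 2, 126039413 to 126039709, 297 bp), 4.88 kb downstream of the Fgf7 start, with 4.30-fold enrichment and a −log10 q of 15.6. That fold exceeded 60.0% of the replicate 1 list. The whole Fgf7 gene (126034658 to 126091185) sits within the span of Fam227b, so the peak is inside both genes. The nearest replicate 2 summit was 159.6 kb from Fgf7, inside Galk2, a galactokinase family gene.

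Fgf9, the ligand of mesothelium and epithelium, had no peak within 100 kb of its span (58070671 to 58112854 on chromosome 14). The nearest shared peak lay 212.0 kb beyond the gene (58324661 to 58325272), and Fgf9 was still its nearest protein-coding gene. Enrichment was 7.85-fold in replicate 1 and 2.83-fold in replicate 2. Among the 2175 shared peaks it stood above 82.6% by replicate 1 fold and above 20.5% by replicate 2 fold, so its standing differed widely between the lists.

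Both receptor genes held a peak in a single replicate. Fgfr1, an FGF receptor gene of the lung mesenchyme (25518759 to 25575718 on chromosome 8), held a replicate 1 peak at 25546880 to 25547190 (311 bp), with 4.68-fold enrichment and a −log10 q of 18.9. No replicate 2 summit was closer to Fgfr1 than 448.3 kb. Fgfr2, whose epithelial isoform receives FGF7 and FGF10, spans 130162451 to 130266808 on chromosome 7 and held a replicate 2 peak at 130215860 to 130216127 (268 bp). Its 2.75-fold enrichment exceeded 25.5% of the replicate 2 list, its −log10 q was 5.35, and it lay 50.9 kb downstream of the annotated start. A shared peak with Fgfr2 as nearest protein-coding gene lay outside the limit, 198.1 kb from the gene (3.27-fold in replicate 1, 3.36-fold in replicate 2, at 129964234 to 129964524), inside the long noncoding RNA gene Gm4265.

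At the strength of these calls, peaks without a partner were the majority in the replicate 1 range and the minority in the replicate 2 range. Over the whole lists, 51.2% of replicate 1 peaks and 77.6% of replicate 2 peaks had a partner. Of 480 replicate 1 peaks with a −log10 q from 15 to 20, the range that holds the Fgf7 and Fgfr1 peaks, 220 had a replicate 2 partner (45.8%, 95% Wilson interval 41.4 to 50.3). Of 222 replicate 2 peaks with a −log10 q from 5 to 6, the range of the Fgfr2 peak, 138 had a replicate 1 partner (62.2%, 55.6 to 68.3). These −log10 q ranges were chosen after the values were seen, and the intervals treat peaks as independent.

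Etv4, an effector gene switched on by FGF signalling in bud tips, had a shared peak close to the gene. It spanned 101791044 to 101791532 on chromosome 11 (489 bp) in replicate 1 and 101791022 to 101791442 (421 bp) in replicate 2, and the summits were 20 bp apart. Enrichment was 5.02-fold in replicate 1 and 3.60-fold in replicate 2, with −log10 q of 21.2 and 11.3. These folds exceeded 72.4% and 58.0% of the peaks in their lists. Among the shared peaks the Etv4 peak ranked 848 and 1120 of 2175, near the middle, where the Fgf10 peak ranked 151 and 139.

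The Etv4 peak lay 5.93 kb beyond the higher-coordinate end of the gene (101769747 to 101785310), in the 92.2 kb gap between Etv4 and Meox1, a homeobox gene of the paraxial mesoderm. The long noncoding RNA gene Gm39392 (101785321 to 101789152) ends 2.09 kb from the summit. Another shared peak on the opposite side of Etv4, 127.7 kb away, had Rdm1 as its nearest protein-coding gene. Etv5, the paralogue of Etv4 (22381313 to 22439570 on chromosome 16), was the gene with the emptiest surroundings: its nearest summits were 791.7 kb away in replicate 1 and 801.4 kb away in replicate 2.

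**Figure D2:**
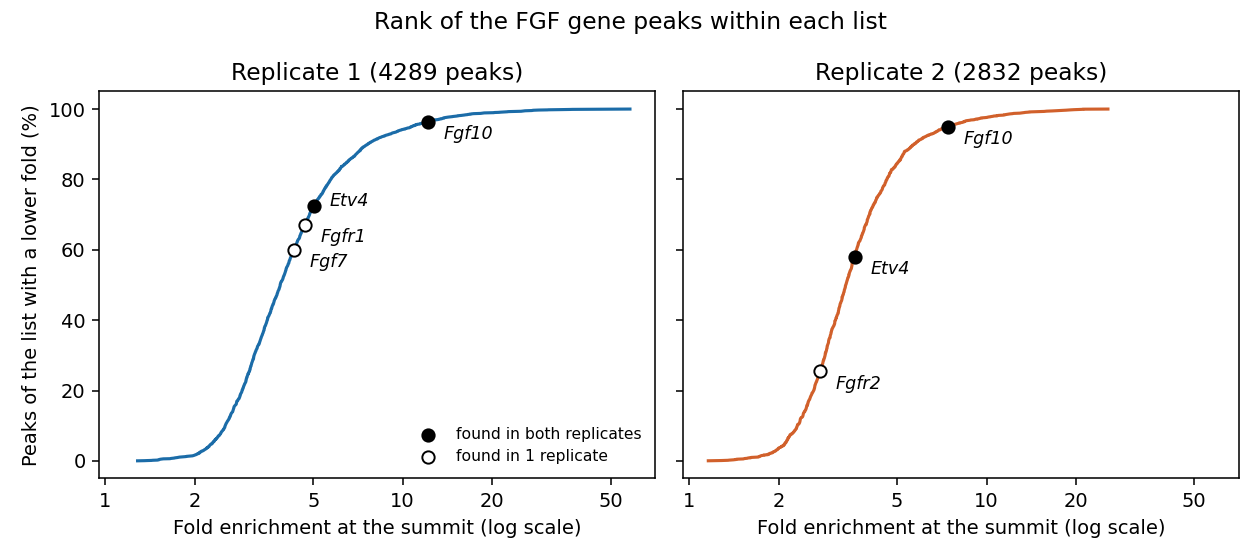
Share of peaks with a lower fold (y axis, %) against fold enrichment at the summit (x axis, log scale) in the replicate 1 list (left) and the replicate 2 list (right), with the assigned peaks of the FGF genes as points. The Fgf10 peak is above 96.4% and 95.0% of its lists, while the peaks at Etv4, Fgfr1, Fgf7 and Fgfr2 lie between 25.5% and 72.4%.

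The Sprouty genes encode intracellular inhibitors of receptor tyrosine kinase signalling, and none had an assigned peak. For Spry1 (37639947 to 37644599 on chromosome 3) the closest summit, found in replicate 1 alone (37738443 to 37738857, 3.70-fold), was 94.1 kb away and so within the distance limit, but the predicted coding gene Gm5148 was nearer, at 14.3 kb. A stronger shared peak lay 231.3 kb from Spry1 on the same side, reaching 12.6-fold enrichment there in replicate 1 and 5.56-fold in replicate 2, and also had Gm5148 as nearest protein-coding gene. For Spry2 (105891947 to 105896819 on chromosome 14) the nearest shared peak was 159.4 kb away (105732409 to 105732777), with 6.68-fold and 2.92-fold enrichment, and no protein-coding gene was closer to it than Spry2. For Spry4 the closest summit was 153.4 kb away, inside another protein-coding gene, in replicate 1 alone (4.89-fold).

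Of the assigned peaks, the farthest from its gene was that of Fgf10 at 35.2 kb. Outside the 100 kb limit, the nearest peak with a member as its closest protein-coding gene was that of Spry2 at 159.4 kb. With the limit at 500 kb, shared peaks of Fgf9, Fgfr2 and Spry2 joined those of Fgf10 and Etv4, making 5 of 10 genes. Under the same limit 1598 of 21779 protein-coding genes (7.34%) had a shared peak. The sequence from which a peak could be assigned was not measured at this limit. The gap between protein-coding genes that holds the added peak was 1020.2 kb at Fgf9, 526.7 kb at Fgfr2 and 582.6 kb at Spry2. Against the medians of all shared peaks, 4.23-fold in replicate 1 and 3.63-fold in replicate 2, the added Fgf9 peak (7.85-fold and 2.83-fold) and Spry2 peak (6.68-fold and 2.92-fold) were above in replicate 1 and below in replicate 2. The Fgfr2 peak (3.27-fold and 3.36-fold) was below in both.

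**Figure D3:**
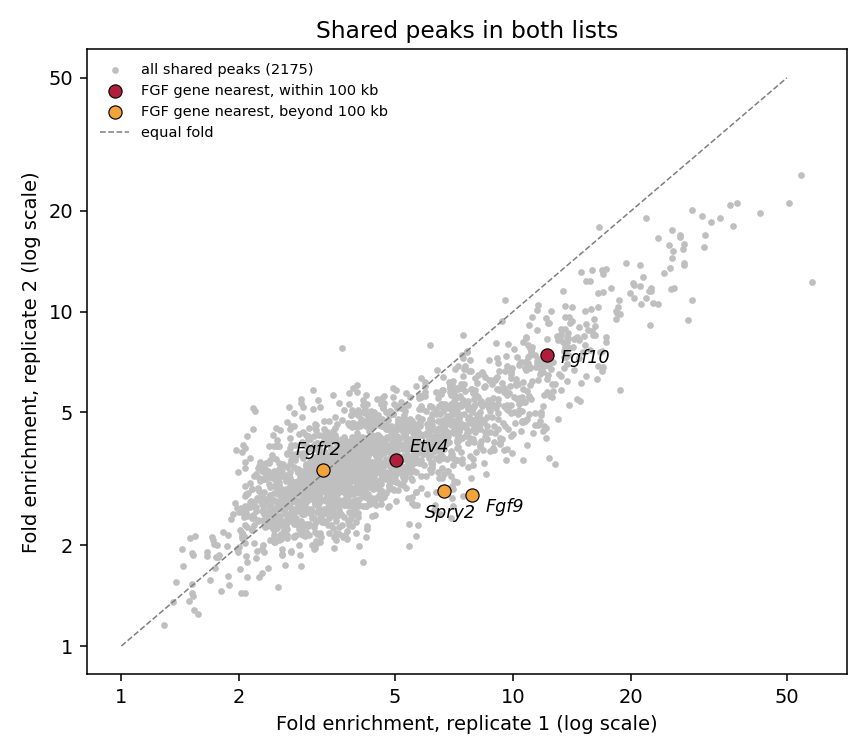
Fold enrichment in replicate 1 (x axis) and replicate 2 (y axis), both on log scales, for all 2175 shared peaks (grey) and the 5 whose nearest protein-coding gene is an FGF branching gene, within 100 kb (red) or between 100 and 500 kb (orange). The Fgf10 peak (12.2 and 7.41) stands in the upper part of the cloud, Etv4 (5.02 and 3.60) near its middle, and Fgf9 and Spry2 along its lower edge.

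By signalling side, 1 of the 2 mesenchymal ligand genes (Fgf10, not Fgf7) and 1 of the 4 genes of the epithelial receptor and its responders (Etv4, not Fgfr2, Etv5 or Spry2) had a shared peak. Counting a peak in at least 1 replicate, these became 2 of 2 and 2 of 4. Over all protein-coding genes the 2 shares were 5.96% and 11.7%. The 2 shared peaks differed in strength and distance, the ligand one having 12.2-fold and 7.41-fold enrichment at 35.2 kb and the responder one 5.02-fold and 3.60-fold at 5.93 kb. With the limit at 500 kb the counts with a shared peak were 1 of 2 and 3 of 4, against 7.34% of all protein-coding genes. These shares depend on the grouping: with Spry1 and Spry4 among the responders the counts were 1 of 6 at 100 kb and 3 of 6 at 500 kb, and with Fgf9 among the ligands they were 1 of 3 and 2 of 3. The sequence from which a peak could be assigned also differed between genes. At the 100 kb limit it was 56.6 kb for Fgf7 and 277.9 kb for Fgf10 on the ligand side. For the epithelial genes it was 62.8 kb for Etv4, 266.7 kb for Fgfr2, 129.4 kb for Etv5 and 204.9 kb for Spry2. It was not measured at 500 kb. Groups this small allow no test, and the difference between the sides was not tested.

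The members were set beside all protein-coding genes as a description only, since they were chosen with earlier results of these data known. A shared peak was assigned to 2 of 10 members (20.0%), against 5.96% of the 21779 genes. A replicate 1 peak was assigned to 4 of 10, against 10.4%, and a replicate 2 peak to 3 of 10, against 7.57%. A peak in at least 1 replicate was assigned to 5 of 10, against 11.7%. The members can also collect peaks over more sequence, with 142.6 kb per member assignable to it on average against 87.4 kb per protein-coding gene, 1.63 times as much. Sequence shared by overlapping genes was counted once in the 87.4 kb value and in full for a member, so that ratio is approximate. Per megabase of assignable sequence there were 1.40 shared peaks for the members (exact Poisson 95% interval 0.170 to 5.07, counting error only) and 0.827 for all protein-coding genes. The member value rests on 2 peaks, and that of Fgf10 was already known when the members were chosen. The interval takes no account of that choice.

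**Figure D4:**
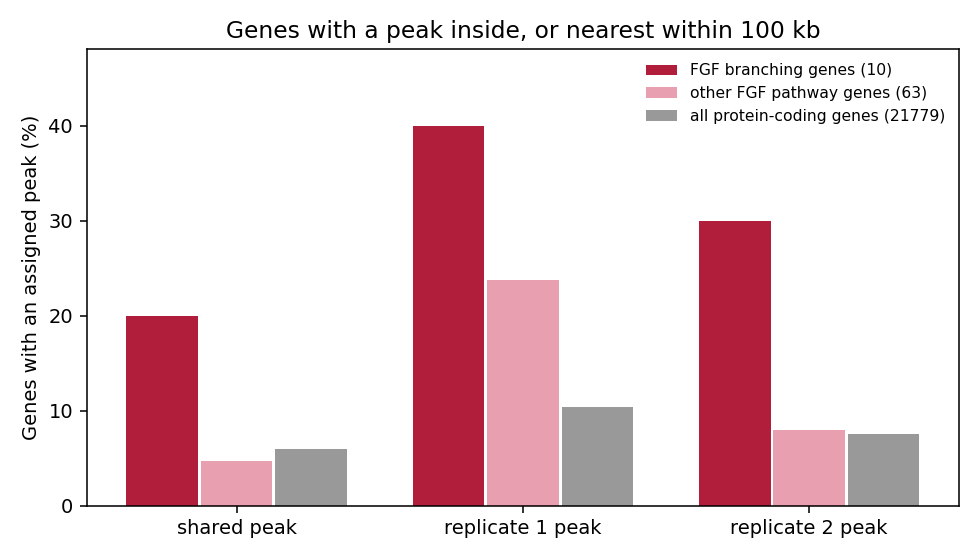
Share of genes (y axis, %) with an assigned shared peak, replicate 1 peak or replicate 2 peak among the 10 FGF branching genes (dark red), 63 other FGF pathway genes (pink) and all 21779 protein-coding genes (grey). The branching genes have 20.0%, 40.0% and 30.0%, from 2, 4 and 3 genes, and the other pathway genes exceed the grey bar by a wide margin in replicate 1 alone (23.8% against 10.4%).

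At the 100 kb limit, other genes of the FGF pathway had shared peaks about as often as any gene. Of 64 further ligand, receptor, adaptor, kinase, inhibitor, effector and heparan sulfate genes, 63 were matched to a gene used here (all but Spry3), and 3 had a shared peak (4.76%, against 5.96% of all protein-coding genes). They were Map2k1, Fgf12 and Hs2st1. By role these were 1 of 19 ligand genes, 0 of 8 receptor and coreceptor genes and 1 of 17 adaptor and kinase genes. The remaining roles had 0 of 6 feedback inhibitor genes, 0 of 3 effector genes and 1 of 10 heparan sulfate genes. The ligand group was drawn from the whole FGF family, and its 1 gene was Fgf12, an intracellular member that is not a secreted ligand. With the limit at 500 kb the share was higher than over all genes, 10 of 63 (15.9%) against 7.34%, without matching on assignable sequence.

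Map2k1, which encodes the kinase MEK1 between RAF and ERK, held the strongest peak of the pathway. It lay at 64233418 to 64234066 on chromosome 9, where enrichment reached 18.4-fold in replicate 1 and 9.88-fold in replicate 2, ranking 52 of 4289 and 70 of 2832. A weaker shared peak in the same gene had 2.69-fold and 3.19-fold enrichment, with summits 301 bp apart. Fgf12, an intracellular member of the FGF family that does not act as a secreted ligand, held a peak of 1843 bp in replicate 1 and 1860 bp in replicate 2 (28293217 to 28295149 on chromosome 16 over both), with 4.13-fold and 4.62-fold enrichment. Hs2st1, a heparan sulfate sulfotransferase gene whose product helps FGFs bind their receptors, held a weak peak of 2.06-fold and 2.44-fold that also lay within the span of Gm43707. With summits within 100 bp required, Map2k1 kept a shared peak and Fgf12 and Hs2st1 did not.

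The same genes showed many peaks in replicate 1 that replicate 2 lacked. A replicate 1 peak was assigned to 15 of 63 (23.8%, against 10.4% of all genes) and a replicate 2 peak to 5 of 63 (7.94%, against 7.57%). Having a replicate 1 peak and no replicate 2 peak was the case for 11 (17.5%), against 4.16% of all genes, without matching on assignable sequence. By role they were 2 of 19 ligand, 1 of 8 receptor and coreceptor and 2 of 17 adaptor and kinase genes. The rest were 3 of 6 feedback inhibitor, 2 of 3 effector (Ets1 and Ets2) and 1 of 10 heparan sulfate genes. Among the inhibitor genes, Spred1, a Sprouty-related inhibitor, had 3 peaks of 2.71- to 3.06-fold. Dusp6, the ERK phosphatase, had 2.97-fold at 30.3 kb, and Il17rd, a transmembrane FGF antagonist, had 4.39-fold inside the gene. Fgf2, a ligand gene near Spry1 on chromosome 3, had a replicate 1 peak of 2.68-fold, and the highest unpaired fold was 6.92, 51.8 kb from Ptpn11, the gene of the phosphatase SHP2. The 15 replicate 1 peaks without an overlapping replicate 2 peak had a median fold of 3.32, below the list median of 3.87. They came from 12 genes: the 11 above and Fgf14, whose replicate 2 peak did not overlap its replicate 1 peak.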

How the data were processed

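HOXA5-FLAG ChIP-seq peak lists of 2 immunoprecipitates from E15.5 lungs were used, 1 per replicate. Per the labels' protocols, lungs were cross-linked with 1% formaldehyde (10 min), and 20 µg of chromatin sonicated to 200 to 500 bp was immunoprecipitated. MACS3 3.0.1, Bowtie2 2.5.2, SAMtools 1.18, Trim Galore, bedtools 2.31.0, deepTools and FastQC 0.12.1 are named in the submitters' processing notes, with mm10. Tool settings and the peak caller's control: not given in the sources used here. The deposited fold is a ratio by the authors' caller at the summit, and the deposited −log10 p and −log10 q are the authors' too. Summits, starts and ends came from the deposited position columns, and the replicate 2 list, whose peak names bear a different number, was taken as labelled. Depth is unknown, and a deeper library would pass more peaks.

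Overlap of at least 1 bp made a peak shared, and a shared peak was placed at its replicate 1 summit. Of 49943 RefSeq genes (GRCm38.p6), 340 starting below 3 Mb outside chromosome Y were left out, since those may be scaffold positions. The gene table has no exons. Overlap and assignment code was tested on simulated data (Python 3.11.15, pandas 2.3.3, scipy 1.17.1). No test across genes was run, since there is 1 group of 2 samples. The members and lists were chosen with earlier results of these data known. Genes named are the members, their neighbours, the nearest protein-coding genes of peaks within 500 kb, other pathway genes with a shared peak, and the 3 genes with peaks most like that of Fgf10. Pathway genes with a replicate 1 peak alone were named after their values were seen. Alternatives covered the overlap rule, peak thresholds, distance limits, competing genes, peak position and single replicates.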

Additional observations from a re-analysis of the deposited data

How the results depend on the processing

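The shared peaks at Fgf10 and Etv4 were both present with 50% reciprocal overlap, with summits within 100 bp, when −log10 q had to reach 5 or 10, with at least 3-fold enrichment, with peaks of at most 1000 bp, with a 50 kb limit and with replicate 2 summits. A 10 kb limit left 1 shared peak and 1 gene (Etv4), with 0 of the mesenchymal ligand genes and 860 protein-coding genes overall. A 500 kb limit gave 5 shared peaks at 5 members, 3 of them epithelial receptor or responder genes, and 10 other pathway genes. Those 10 were 15.9% of 63, against 7.34% of all protein-coding genes, without matching on assignable sequence. At that limit, in a combination of settings chosen after seeing the data, 3 genes had a shared peak with Spry1 and Spry4 added to the responders and 2 with Fgf9 added to the ligands. When all annotated genes competed to be nearest, 0 shared peaks and 0 members remained, so 0 ligand and 0 responder genes, and 3 members had a peak in at least 1 replicate; the noncoding genes Gm16263 and Gm39392 were then nearest to the Fgf10 and Etv4 peaks. Summits within 100 bp left 1 other pathway gene, and a −log10 q of at least 10 left 758 protein-coding genes. Replicate 2 alone gave 3 assigned peaks, 3 members, 1 ligand gene, 2 responder genes, 5 other pathway genes and 1649 protein-coding genes. Replicate 1 alone gave 4 assigned peaks, 4 members, 2 ligand genes, 1 responder gene, 15 other pathway genes and 2273 protein-coding genes. The ligand and responder counts thus went in opposite directions between the replicates. Measured from the midpoint of the merged peak, the Fgf10 peak lay 35152 bp from the gene, against 35247 bp from its summit. No paired analysis was possible because the inputs were not analysed and the remaining libraries form a single group.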

Other observations

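The Fgf10 peak shared its exact fold and −log10 q in replicate 2 with other peaks: 4 of the 2832 peaks, itself included, carried that pair of values, against 1 of 4289 for its replicate 1 values. The 2832 replicate 2 peaks held 1951 distinct folds and the 4289 replicate 1 peaks 3171, so ranks within a list include ties.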
